A study of Mus musculus with 12 samples.

Results

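The genes described here encode the core machinery of RNA polymerase II (Pol II) transcription: subunits of Pol II (Polr2 genes), of the Mediator complex (Med genes), the TBP-associated factors (Taf genes) and the general transcription factors (Gtf2 genes). They were chosen by gene symbol, as the autosomal protein-coding RefSeq genes of mm10 with one of these family names, which gave 74 of the 21468 protein-coding genes with a known start: 13 Pol II genes, 28 Mediator genes, 17 Taf genes and 16 general factor genes. The question asked of each was whether the acetylated histone mark H3K36ac had a called peak within 3000 bp of the gene start, here called a promoter peak, in each sample.

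H3K36ac was mapped by chromatin immunoprecipitation and sequencing (ChIP-seq) in 3 WT and 3 Sirt7-/- samples (labelled S7KO), all from 129S1/Sv mice at postnatal day 5 (Pnd 5). The knockout is constitutive, so the somatic cells of the testis lack SIRT7 as well. Each sample was made from 50000 cells of a different mouse, enriched for spermatogonia by differential plating, and the samples are numbered 2, 3 and 4 in each genotype. A separate input library for every sample entered only through the authors' peak calling, and the data used here are the 6 peak lists, which hold 906, 64 and 294 peaks in WT replicates 2, 3 and 4 and 2840, 2045 and 2591 peaks in the Sirt7-/- replicates of the same numbers.

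A core promoter is read by an assembly of factors. TFIID, made of TBP and the Taf proteins, recognises the promoter, TFIIA and TFIIB steady it there, TFIIF brings Pol II, and TFIIE and TFIIH complete the assembly and open the DNA, while Mediator relays signals from activators to Pol II. H3K36ac is a mark found at the promoters of active genes, and SIRT7 is an NAD+-dependent deacetylase that can remove it. Most genes of this machinery are expressed in nearly all cell types, so a peak at one of those is not particular to the germ line. Among marker genes, a promoter peak was called in at least 1 Sirt7-/- sample at 6 of 14 germ cell markers (42.9%, against 19.3% of all protein-coding starts). These were Zbtb16, Gfra1, Etv5, Dazl, Uchl1 and Dmrt1. Of 16 somatic markers, 1 was called (Sox9, 6.25%). In WT, Dmrt1 alone was called (3.33% of the 30 markers, against 5.12% of all starts). The germ cell markers Ddx4, Lin28a, Sall4, Id4, Kit, Stra8, Nanos2 and Nanos3 had no peak in any sample. No marker had a peak in all 3 Sirt7-/- samples, against 5.09% of all starts, and 30 markers are too few to tell such shares apart. Which cells the peaks came from was not tested.

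Many Pol II machinery genes had a promoter peak in a single Sirt7-/- sample, and few had one in every Sirt7-/- sample. A promoter peak was called in at least 1 Sirt7-/- sample at 33 of the 74 genes (44.6%), against 19.3% of all protein-coding starts, and in at least 1 WT sample at 8 (10.8%, against 5.12%). In all, 34 genes had a peak in at least 1 sample (45.9%, against 19.7%), 7 in both genotypes (9.46%, against 4.64%), and 40 in no sample (54.1%, against 80.3%). Calls in at least 2 samples of a genotype were made at 11 genes in Sirt7-/- (14.9%, against 10.3%) and at 2 in WT (2.70%, against 0.824%). Of the 33 genes, 22 were called in exactly 1 Sirt7-/- sample (29.7% of the 74, against 8.95% of all starts). Only 5 genes, Polr2m, Gtf2e1, Taf9, Med25 and Gtf2a1, were called in all 3 Sirt7-/- samples (6.76%, against 5.09%), which is near the background. Among the starts called in any Sirt7-/- sample, those called in all 3 made up 15.2% for the machinery genes and 26.4% for all starts.

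**Figure D1:**
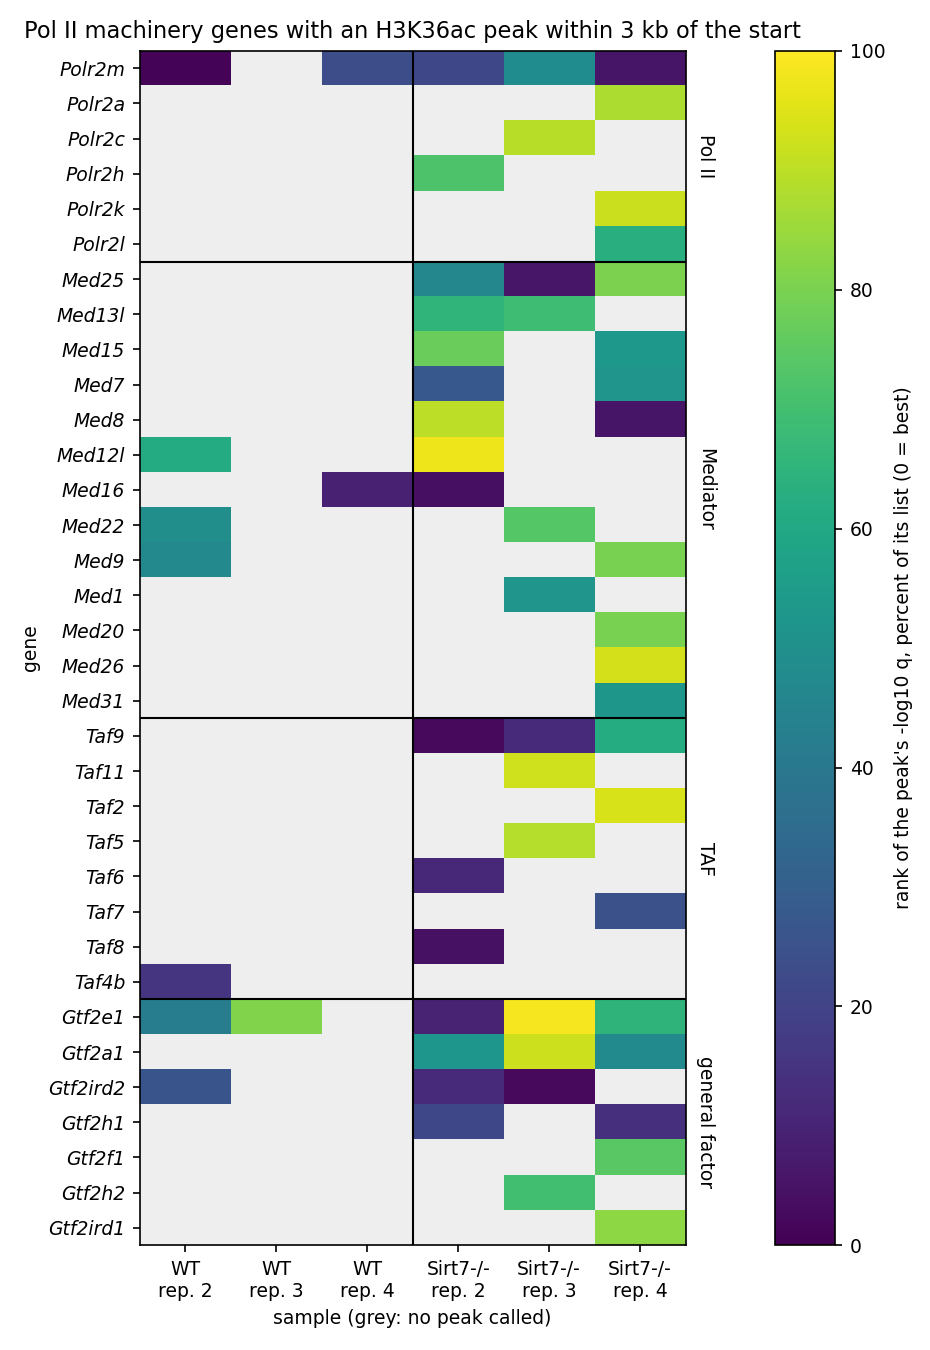
Promoter peak calls of H3K36ac at the 34 genes of the Pol II machinery that had a call, with genes as lines grouped by complex and the 3 WT and 3 Sirt7-/- samples as columns, where a coloured cell is a called peak, a darker colour a better rank in that sample's list and grey no call. The Sirt7-/- columns hold 16, 13 and 20 called genes and the WT columns 7, 1 and 2, and 22 genes are coloured in a single Sirt7-/- column.

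By sample, the genes with a promoter peak numbered 7 in WT replicate 2 (9.46%, against 4.38% of all starts), 1 in WT replicate 3 (1.35%, against 0.317%) and 2 in WT replicate 4 (2.70%, against 1.35%). They numbered 16 in Sirt7-/- replicate 2 (21.6%, against 13.2%), 13 in replicate 3 (17.6%, against 9.73%) and 20 in replicate 4 (27.0%, against 11.7%). The Sirt7-/- samples were all above the WT samples, for the machinery genes and for all starts alike. Over all starts the share with a promoter peak in the knockout was 11.6% ± 1.74 (SD, n = 3), and in WT it was 2.02% ± 2.11 (SD, n = 3). The difference of 9.54 percentage points had p = 0.1 by a two-sided exact permutation test, and no smaller p is possible with 3 against 3 samples. The machinery genes were called more often than all starts in each of the 6 samples, at 1.92 ± 0.346 times the rate of all starts in the knockout and 2.81 ± 1.26 times in WT (SD, n = 3 each). The WT value is an unweighted mean over the 3 samples and rests on 10 calls, of which 7 are in replicate 2. It was raised by WT replicate 3, whose ratio of 4.27 comes from 1 called gene. Without replicate 3 the WT mean was 2.08, near the 1.92 of Sirt7-/-. Without WT replicate 2 it was 3.13, and without WT replicate 4 it was 3.21. The order of the genotypes turned for peaks at least 500 bp wide, where the rates were 1.17 in Sirt7-/- and 0.302 in WT.

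**Figure D2:**
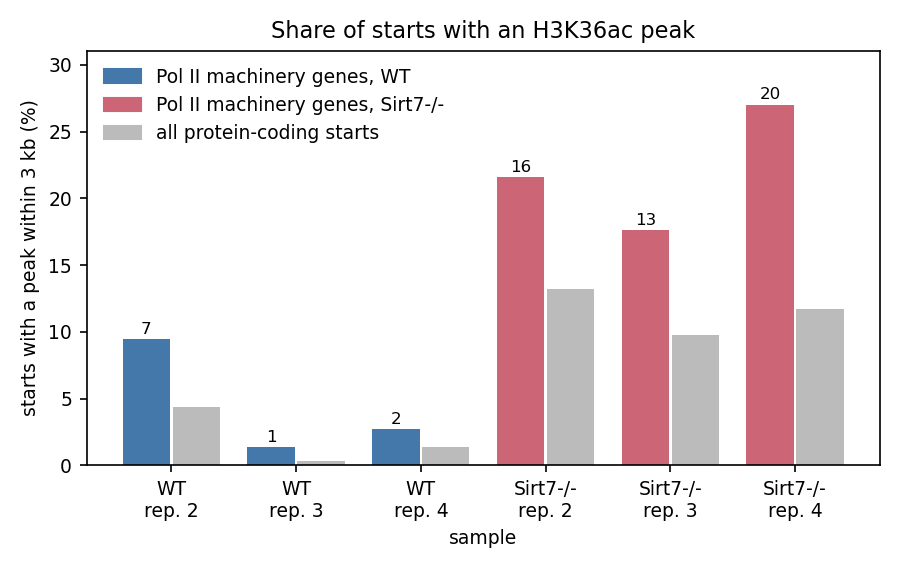
Percentage of starts with an H3K36ac promoter peak in each of the 6 samples, for the 74 Pol II machinery genes and for all 21468 protein-coding starts. The machinery genes lie above all starts in every sample, from 1.35% against 0.317% in WT replicate 3 to 27.0% against 11.7% in Sirt7-/- replicate 4.

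The lists differ in length and in the weakest peak they hold, with a lowest -log10 p of 4.88 to 5.99 in WT and 4.33 to 4.54 in Sirt7-/-, and the read depth left behind them after filtering is not known here. With the Sirt7-/- lists reduced by rank to the 906 peaks of the longest WT list, 12 machinery genes were called in at least 1 Sirt7-/- sample, against 8 in WT, and the difference over all starts was 2.36 percentage points (exact permutation p = 0.3). With a common minimum -log10 p of 5.99, a setting added once the data had been seen, the numbers were 14 against 8 genes and the difference was 4.98 points (exact permutation p = 0.1). The excess of calls in Sirt7-/- was thus smaller, but kept its direction, under both. The reduced Sirt7-/- lists were still longer than those of WT replicates 3 and 4, with 64 and 294 peaks. The direction in that setting therefore cannot be told apart from list length. Holding all 6 lists to the 64 peaks of the shortest one, which makes the number of calls nearly equal by construction, left 1 machinery gene called in Sirt7-/- and 3 in WT. Fisher's exact test at each start, with Benjamini-Hochberg adjustment, called 0 of 21468 starts, and 0 had an unadjusted p below the usual threshold, since the smallest p that this design allows is 0.1.

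The promoters themselves differ from the average promoter. In RefSeq windows running from 250 bp before to 50 bp after a start, available for 63 of the 74 genes and 17492 starts in all, 58 machinery genes (92.1%) had a CpG ratio (observed over expected CpG dinucleotides) of at least 0.6, against 48.4% of all. Among such CpG-rich starts, 46.6% of the machinery genes and 34.6% of all starts were called in at least 1 Sirt7-/- sample, while 15.5% and 18.9% were called in at least 2. In at least 1 WT sample, 12.1% of the CpG-rich machinery genes and 9.72% of all CpG-rich starts were called. Within CpG-rich starts the mean per-sample rate of the machinery genes was 1.14 times that of all starts in Sirt7-/-, so most of the excess there was no longer seen. In WT it was 1.90 times, a mean that includes replicate 3 with its 1 called gene. Another protein-coding start lay within 1 kb for 19 of the 74 genes (25.7%, against 11.3% of all starts), and 11 of these 19 were called in Sirt7-/- (57.9%), compared with 22 of the other 55 (40.0%). Over all starts the same shares were 41.3% with such a neighbour and 16.5% without. The part of these shared promoters in the result was not tested.

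The promoter sequences below, from RefSeq on GRCm38.p6 (the coordinates of mm10), are those of the 5 genes called in all 3 Sirt7-/- samples and, beside them, of the first uncalled gene of each complex by name whose window lies within 50 bp of its start. Each runs 5′ to 3′ on the strand of the gene over 300 bases. Capitals mark matches, on either strand and with overlapping matches counted, to the TATA box (TATAAA), the CCAAT box, the GC box (GGGCGG), and the cores of ETS (CCGGAAG), NRF1 (GCATGCG), YY1 (GATGGCG) and CRE (TGACGT) sites. The windows of the called genes lie at chr9:71485934-71486233 (Polr2m, minus strand), chr16:37539740-37540039 (Gtf2e1, minus), chr13:100651093-100651392 (Taf9, plus), chr7:44892375-44892674 (Med25, minus, for a transcript that starts 281 bp inside the gene) and chr12:91590438-91590737 (Gtf2a1, minus).
Polr2m: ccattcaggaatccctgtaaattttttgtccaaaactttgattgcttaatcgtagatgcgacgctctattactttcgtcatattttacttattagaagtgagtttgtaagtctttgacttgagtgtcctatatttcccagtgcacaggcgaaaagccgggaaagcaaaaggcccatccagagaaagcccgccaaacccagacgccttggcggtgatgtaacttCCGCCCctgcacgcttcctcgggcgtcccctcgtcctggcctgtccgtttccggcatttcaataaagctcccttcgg
Gtf2e1: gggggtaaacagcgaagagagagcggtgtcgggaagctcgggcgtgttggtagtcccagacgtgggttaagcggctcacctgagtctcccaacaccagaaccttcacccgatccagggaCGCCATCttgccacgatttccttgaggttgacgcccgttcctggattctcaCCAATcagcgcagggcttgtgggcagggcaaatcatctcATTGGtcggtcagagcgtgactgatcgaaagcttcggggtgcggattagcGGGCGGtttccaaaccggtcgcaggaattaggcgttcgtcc
Taf9: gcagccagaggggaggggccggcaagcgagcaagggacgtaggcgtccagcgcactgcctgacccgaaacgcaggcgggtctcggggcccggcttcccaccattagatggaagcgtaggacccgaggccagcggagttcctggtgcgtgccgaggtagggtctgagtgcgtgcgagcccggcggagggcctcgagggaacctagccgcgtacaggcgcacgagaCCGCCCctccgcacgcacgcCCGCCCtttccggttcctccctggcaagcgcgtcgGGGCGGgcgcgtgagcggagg
Med25: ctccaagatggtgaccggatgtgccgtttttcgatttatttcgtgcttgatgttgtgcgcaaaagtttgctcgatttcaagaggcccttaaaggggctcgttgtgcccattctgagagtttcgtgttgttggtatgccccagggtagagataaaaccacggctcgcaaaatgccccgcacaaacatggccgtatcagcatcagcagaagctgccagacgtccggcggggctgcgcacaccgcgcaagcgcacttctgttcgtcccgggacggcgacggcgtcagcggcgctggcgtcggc
Gtf2a1: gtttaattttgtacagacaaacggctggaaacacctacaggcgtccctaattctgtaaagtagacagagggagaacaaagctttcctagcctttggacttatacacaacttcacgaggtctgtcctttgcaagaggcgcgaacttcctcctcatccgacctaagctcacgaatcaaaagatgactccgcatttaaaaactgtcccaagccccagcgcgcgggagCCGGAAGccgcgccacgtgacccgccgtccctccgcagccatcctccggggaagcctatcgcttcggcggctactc
The windows of the uncalled genes lie at chr5:77310234-77310533 (Polr2b, plus strand), chr13:69802120-69802419 (Med10, plus), chr7:105744289-105744588 (Taf10, minus) and chr9:70012298-70012597 (Gtf2a2, plus).
Polr2b: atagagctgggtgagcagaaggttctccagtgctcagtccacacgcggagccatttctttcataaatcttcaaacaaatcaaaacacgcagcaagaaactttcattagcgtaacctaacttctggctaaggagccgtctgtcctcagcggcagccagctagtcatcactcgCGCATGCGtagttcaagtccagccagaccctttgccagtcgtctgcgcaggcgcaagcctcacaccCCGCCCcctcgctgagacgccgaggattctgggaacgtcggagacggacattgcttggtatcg
Med10: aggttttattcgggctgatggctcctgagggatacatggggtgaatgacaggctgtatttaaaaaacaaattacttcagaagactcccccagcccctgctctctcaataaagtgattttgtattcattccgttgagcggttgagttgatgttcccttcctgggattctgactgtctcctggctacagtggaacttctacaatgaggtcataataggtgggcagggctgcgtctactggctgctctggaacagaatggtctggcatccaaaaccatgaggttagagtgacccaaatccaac
Taf10: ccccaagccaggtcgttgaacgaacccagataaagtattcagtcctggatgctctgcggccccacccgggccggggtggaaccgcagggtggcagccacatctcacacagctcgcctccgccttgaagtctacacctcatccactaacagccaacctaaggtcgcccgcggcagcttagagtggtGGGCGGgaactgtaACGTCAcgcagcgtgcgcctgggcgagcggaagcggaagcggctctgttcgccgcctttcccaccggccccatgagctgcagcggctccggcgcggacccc
Gtf2a2: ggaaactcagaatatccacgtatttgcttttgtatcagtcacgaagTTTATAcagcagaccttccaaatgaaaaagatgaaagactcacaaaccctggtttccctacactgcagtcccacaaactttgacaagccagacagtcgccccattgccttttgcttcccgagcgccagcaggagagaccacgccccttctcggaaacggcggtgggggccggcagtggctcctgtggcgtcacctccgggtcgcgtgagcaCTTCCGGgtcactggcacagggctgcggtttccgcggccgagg
The called and the uncalled promoters do not part by these letters. GC boxes stand in the windows of Polr2m, Gtf2e1 and Taf9 and also in those of Polr2b and Taf10, and an ETS core stands in Gtf2a1 and in Gtf2a2. Over the 63 windows, the ETS core was found in 30.2% of the machinery promoters against 11.9% of all, the GC box in 65.1% against 46.3%, the NRF1 core in 11.1% against 4.50%, the YY1 core in 12.7% against 4.45% and the CRE core in 15.9% against 8.71%. The TATA box (14.3% against 13.3%) and the CCAAT box (33.3% against 39.2%) were not more frequent. The CpG ratio of the called windows ran from 0.940 in Gtf2e1 to 1.17 in Med25, and that of the uncalled ones was 0.903 in Polr2b, 0.841 in Taf10, 0.793 in Gtf2a2 and 0.239 in Med10. A match is a string of letters in the window and not a measured binding site.

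Among the Pol II genes, 6 of 13 were called in at least 1 Sirt7-/- sample (46.2%, against 19.3% of all starts). Per-sample counts were 2, 2 and 4, and 1 gene was called in WT, where 5.12% of all starts were. The single gene with repeated calls was Polr2m, whose product Gdown1 associates with Pol II and hinders the binding of TFIIF, and which is not a core subunit. Its peak was called in 5 of the 6 samples. It was 401 bp wide and ranked 9 of 906 in WT replicate 2, and 492 bp wide and ranked 69 of 294 in WT replicate 4. In Sirt7-/- it was 459 bp wide at rank 614 of 2840, 427 bp at rank 997 of 2045 and 323 bp at rank 143 of 2591, in replicates 2, 3 and 4. Polr2m (chr9:71478437-71485983, minus strand) was therefore among the best peaks of a WT list, and only WT replicate 3, the shortest list, lacked it. All 5 peaks lay wholly inside the gene, from 52 bp to 620 bp after the start, with no base of the promoter window printed above under them, and the 3 Sirt7-/- peaks shared 276 bp. No other protein-coding start lay within 3 kb of them.

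The remaining Pol II calls were in 1 Sirt7-/- sample each. Polr2a, which encodes the largest, catalytic subunit, had a peak in replicate 4 alone, at rank 2273 of 2591 and wholly upstream of its start (chr11:69759054-69759370). Polr2c, the other called gene of the enzyme's core, had one in replicate 3 at rank 1823 of 2045. The subunits shared with Pol I and Pol III held 3 calls of 5 genes, Polr2h in replicate 2 and Polr2k and Polr2l in replicate 4, all between 62.5% and 92.1% down their lists. The promoters of Polr2h and Polr2l are divergent, with the starts of Clcn2 at 80 bp and Tspan4 at 83 bp. The only peak at Polr2l lay wholly upstream of its start and nearer to that of Tspan4. Polr2b, the second-largest subunit, Polr2d and Polr2g, which form the stalk, and Polr2e, Polr2f, Polr2i and Polr2j had no promoter peak in any sample.

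Of the Mediator genes, 13 of 28 were called in at least 1 Sirt7-/- sample (46.4%, against 19.3% of all starts). Per-sample counts were 7, 4 and 8, and 4 genes were called in WT, where 5.12% of all starts were. By module, the called genes were 3 of 7 in the head, which contacts Pol II, 5 of 9 in the middle, 3 of 5 in the tail, where many activators bind, and 2 of 3 in the kinase module. None of Med27, Med28, Med29 and Med30 was called. These shares rest on few genes, and the modules were not tested against each other.

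Med25, a tail subunit contacted by activators, was the single Mediator gene called in all 3 Sirt7-/- samples, and it had no peak in WT. Its peaks were 464 bp wide at rank 1312 of 2840, 253 bp at rank 123 of 2045 and 243 bp at rank 2075 of 2591 in replicates 2, 3 and 4. The calls were not of the same stretch of DNA. The peak of replicate 3 lay 35 to 287 bp after the gene start and that of replicate 4 lay 415 to 657 bp after it, sharing 0 bp, while the peak of replicate 2 overlapped both. Med25 (chr7:44876765-44892705, minus strand) has the start of Fuz 1600 bp away on the opposite strand.

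The 4 Mediator genes with a WT call were each also called in Sirt7-/-. Med16, a tail subunit, had a narrow peak over its start in WT replicate 4 (207 bp, rank 27 of 294) and in Sirt7-/- replicate 2 (331 bp, rank 115 of 2840), both within the best 10% of their lists. Med9, of the middle module, had one in WT replicate 2 (235 bp, rank 425 of 906) and in Sirt7-/- replicate 4 (321 bp, rank 2069 of 2591), at a promoter shared with the long noncoding RNA Med9os, which starts 67 bp away. Med22, of the head, had a peak of 240 bp in WT replicate 2 at rank 449 of 906, upstream of the gene and nearer to the start of the ribosomal protein gene Rpl7a, and a peak of 962 bp in Sirt7-/- replicate 3 at rank 1507 of 2045, which covered the start. Med12l, a paralogue of the kinase module gene Med12, had calls in WT replicate 2 (214 bp, rank 558 of 906) and Sirt7-/- replicate 2 (247 bp, rank 2762 of 2840) that did not overlap. Each of these genes thus had 1 call in each genotype.

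Calls in 2 Sirt7-/- samples and no WT sample were made at Med7, Med8 and Med15, each in replicates 2 and 4, and at Med13l in replicates 2 and 3. The peak of Med8, a head subunit, ranked 148 of 2591 in replicate 4 and 2555 of 2840 in replicate 2. Those of Med7, of the middle module, ranked 785 of 2840 and 1349 of 2591, and those of the tail gene Med15 ranked 2189 and 1384 in the same lists. The peaks at Med13l, a kinase module gene, lay on opposite sides of its start. Single calls were made at Med1, the middle subunit that binds nuclear receptors, in replicate 3, and at Med20, Med26 and Med31 in replicate 4. Med4, Med6, Med10, Med11, Med13, Med17, Med18, Med19, Med21, Med23 and Med24 had no promoter peak in any sample, among them Med17, the central scaffold of the head.

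**Figure D3:**
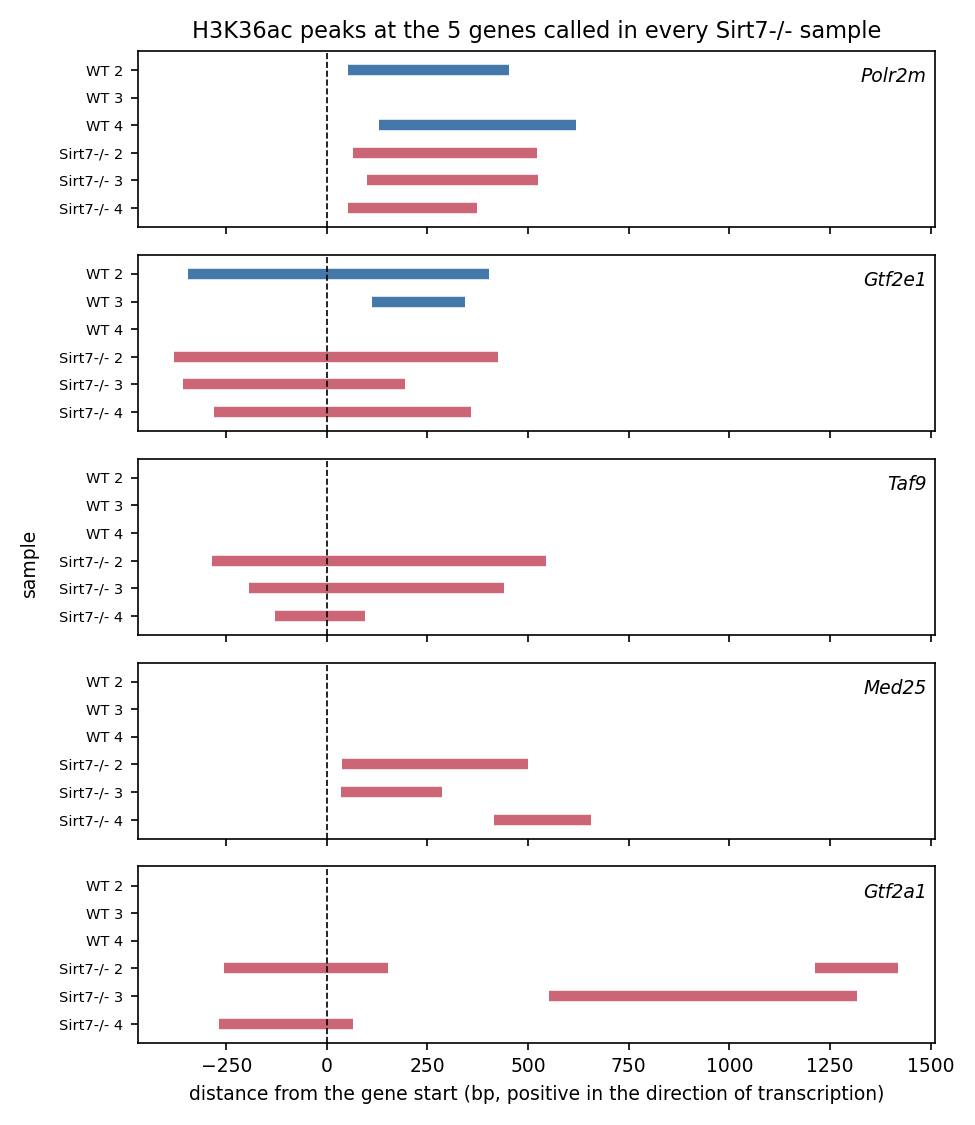
Positions of the H3K36ac peaks at Polr2m, Gtf2e1, Taf9, Med25 and Gtf2a1 in each sample, as bars along the distance in bp from the gene start, with positive values inside the gene. The peaks at Polr2m all lie after the start and those at Taf9 all cover it, while those at Med25 and Gtf2a1 fall on different stretches in different Sirt7-/- samples.

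Of the Taf genes, 7 of 17 were called in at least 1 Sirt7-/- sample (41.2%, against 19.3% of all starts), 3 in each replicate. All 7 encode subunits of TFIID, of which 13 were in the list. Taf9, a histone-fold subunit of TFIID that also serves in the SAGA coactivator, had the best mean rank, 25.5% down the Sirt7-/- lists, of the genes with a call in each of them and none in WT. Its peak was 831 bp wide at rank 70 of 2840 in replicate 2, 635 bp at rank 242 of 2045 in replicate 3 and 223 bp at rank 1610 of 2591 in replicate 4. All 3 covered the start and shared 223 bp, and so fell on the promoter sequence printed above. The promoter is not that of Taf9 alone. Taf9 (chr13:100651343-100656060, plus strand) shares its start with Ak6, an adenylate kinase gene, and Rad17, a checkpoint gene, starts 282 bp away on the opposite strand, so the peak cannot be assigned to one of them.

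The other calls at TFIID genes were single. Taf8 and Taf6 had narrow peaks in Sirt7-/- replicate 2, of 233 bp at rank 133 of 2840 and of 259 bp at rank 323 of 2840, and the products of both hold histone folds. Taf7 and Taf2, the latter a subunit that contacts the initiator, were called in replicate 4 at ranks 645 and 2439 of 2591. Taf5, a scaffold subunit, and Taf11 were called in replicate 3 at ranks 1815 and 1899 of 2045. Taf4b, a TFIID subunit enriched in gonads and needed for the upkeep of spermatogonia, was the 1 machinery gene called in WT only (1.35% of the 74, against 0.475% of all starts). Its peak in WT replicate 2 was 312 bp wide, ranked 141 of 906 and lay 185 to 496 bp after the start. It was thus absent from the 3 longer Sirt7-/- lists, on the strength of a call in 1 of 3 WT samples.

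No promoter peak was called in any sample at Taf3, Taf4, Taf10, Taf12 and Taf13 of TFIID, at Taf5l and Taf6l, the SAGA counterparts of Taf5 and Taf6, at Taf7l2, or at Taf15, an RNA-binding protein of the FET family. Taf3, whose product reads trimethylated histone H3 at active promoters, and Taf6l each had a peak farther inside the gene, 31468 bp and 11387 bp from the start, in Sirt7-/- replicate 4 and replicate 2 respectively.

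Of the general factor genes, 7 of 16 were called in at least 1 Sirt7-/- sample (43.8%, against 19.3% of all starts). Per-sample counts were 4, 4 and 5, and 2 genes were called in WT, where 5.12% of all starts were. Gtf2e1, the large subunit of TFIIE, was called in 5 of the 6 samples and was the single machinery gene with a peak in WT replicate 3. There its peak was 234 bp wide at rank 52 of 64, and in WT replicate 2 it was 750 bp at rank 384 of 906. In Sirt7-/- it was 806 bp at rank 279 of 2840, 552 bp at rank 2020 of 2045 and 640 bp at rank 1682 of 2591. The peak of WT replicate 2 was thus wider than those of Sirt7-/- replicates 3 and 4. Apart from the peak of WT replicate 3, 111 to 344 bp inside the gene, all covered the start, and the 3 Sirt7-/- peaks shared 474 bp. Gtf2e1 (chr16:37509796-37539789, minus strand) has a divergent neighbour, Rabl3, 69 bp away.

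Gtf2a1, which encodes the large precursor of TFIIA, had calls in every Sirt7-/- sample and none in WT, with the poorest mean rank of the 3 such genes, 64.8% down the lists. In replicate 2 it had peaks of 408 bp at rank 1492 and of 209 bp at rank 1900 of 2840. In replicate 3 it had a peak of 766 bp at rank 1886 of 2045, and in replicate 4 one of 333 bp at rank 1231 of 2591. The wider peak of replicate 2 and the peak of replicate 4 covered the start, whereas that of replicate 3 lay 552 to 1317 bp inside the gene and covered a further RefSeq start 838 bp downstream. The peaks of replicates 3 and 4 shared 0 bp, so a promoter peak over the outer start of Gtf2a1 (chr12:91555262-91590487, minus strand) was called in 2 of the 3 samples. Together, the genes with a call in every Sirt7-/- list and none in WT were 3 of 74 (4.05%, against 2.45% of all starts), and of these Taf9 alone had a stretch common to the 3 samples.

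Among the other general factors, Gtf2h1, a core subunit of TFIIH, was called in Sirt7-/- replicates 2 and 4 with similar peaks of 552 bp and 538 bp, at ranks 611 of 2840 and 348 of 2591, at a promoter whose other start, that of Hps5, is 29 bp away. Gtf2h2, also of TFIIH, was called in replicate 3, and Gtf2f1, the large subunit of TFIIF, in replicate 4. The TFII-I family, which carries the Gtf2 name but is not part of the basal assembly, held calls at Gtf2ird1 in replicate 4 and at Gtf2ird2. Gtf2ird2 had peaks of 340 bp at rank 234 of 906 in WT replicate 2, 213 bp at rank 335 of 2840 in Sirt7-/- replicate 2 and 277 bp at rank 50 of 2045 in Sirt7-/- replicate 3. The second of these was the peak farthest from an outer start, at 1689 bp, but all 3 lay after a transcript start 1481 bp inside the gene. The nearest peak outside the window was that of Gtf2i, 3202 bp from the start in Sirt7-/- replicate 2. With any RefSeq start of a gene counted, a setting added once the data had been seen, Gtf2i was called in that sample. The genes called in at least 1 Sirt7-/- sample then numbered 34. No promoter peak was called in any sample at Gtf2b, the single gene of TFIIB, at Gtf2a2, the small subunit of TFIIA, at Gtf2a1l, its germ-cell paralogue of the large one, at Gtf2e2, the small subunit of TFIIE, at Gtf2f2, the small subunit of TFIIF, or at Gtf2h3, Gtf2h4 and Gtf2h5. TFIIA, TFIIE and TFIIF thus each had the gene of the large subunit called and that of the small one uncalled. This was seen only once the calls were known. For TFIIF it rests on 1 call, at rank 1933 of 2591.

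**Figure D4:**
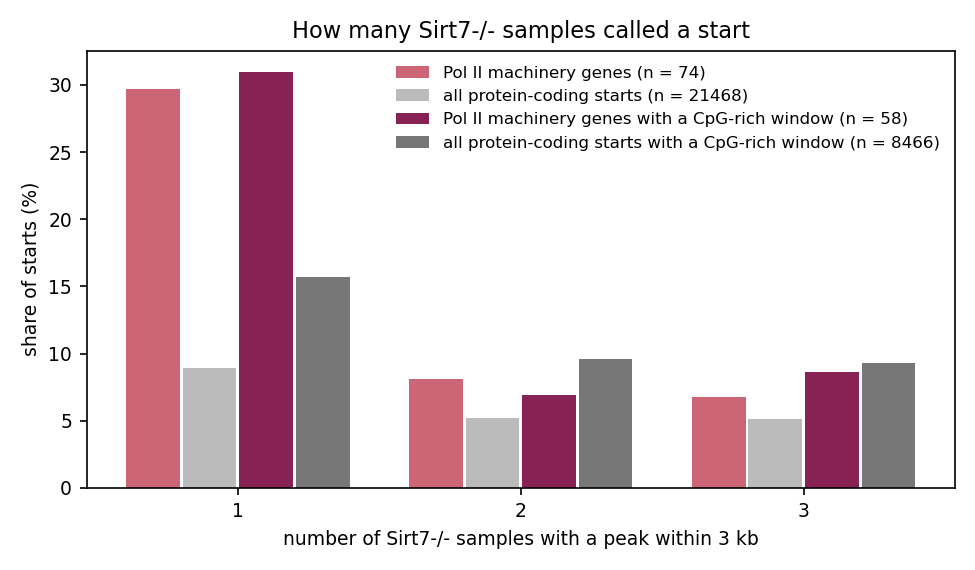
Share of starts by the number of Sirt7-/- samples with an H3K36ac promoter peak, for the 74 Pol II machinery genes, all protein-coding starts, and both again among CpG-rich promoters only. The machinery genes exceed all starts at 1 sample (29.7% against 8.95%, and 31.0% against 15.7% among CpG-rich promoters), while at 3 samples the shares are close (6.76% against 5.09%, and 8.62% against 9.30%).

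The single calls were spread over the samples, with 5 genes called in Sirt7-/- replicate 2 alone, 6 in replicate 3 alone and 11 in replicate 4 alone, and 18 of the 22 had no WT call either (24.3% of the 74, against 8.16% of all starts). Replicate 4 weighed most: without it, 22 genes were called in at least 1 Sirt7-/- sample in place of 33. Replicate 3 was the sample that most often lacked a peak the others had. Without it the genes with calls in the remaining Sirt7-/- lists and none in WT rose from 3 to 7, adding Med7, Med8, Med15 and Gtf2h1. Leaving out a Sirt7-/- list loosens that rule, so the number could only stay or rise. Shares over all starts for calls in 1 named sample alone, or with a list left out, are not given here. Of the 8 genes with a WT call, 3 would be left without WT replicate 2.

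The 51 Sirt7-/- promoter peaks at these genes were narrow and mostly after the outer start of the gene. Their width ran from 209 to 1001 bp with a median of 325 bp, and the 10 WT peaks ran from 207 to 750 bp with a median of 276 bp. In every Sirt7-/- list the median width at the machinery genes was below that of all promoter peaks of the list, at 369.5 against 491 bp in replicate 2, 395 against 456 bp in replicate 3 and 319 against 468 bp in replicate 4. In WT replicates 2 and 3 it was also below, at 312 against 376 bp and 234 against 272 bp, and in WT replicate 4 above, at 349.5 against 300.0 bp over 2 peaks. The midpoint lay inside the gene for 39 of the 51 Sirt7-/- peaks and 9 of the 10 WT peaks, 17 and 2 covered the outer start, and 28 and 7 lay wholly after it. Some of these peaks lay nearer to a transcript start farther inside the gene, as at Med1 and Med25. The same position shares are not given for all promoter peaks of the lists. Of the Sirt7-/- peaks, 8 stood in the best 10% of their list and 17 in its last 25%, with a median position 62.5% down the list, so many of these calls were close to the calling threshold.

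**Figure D5:**
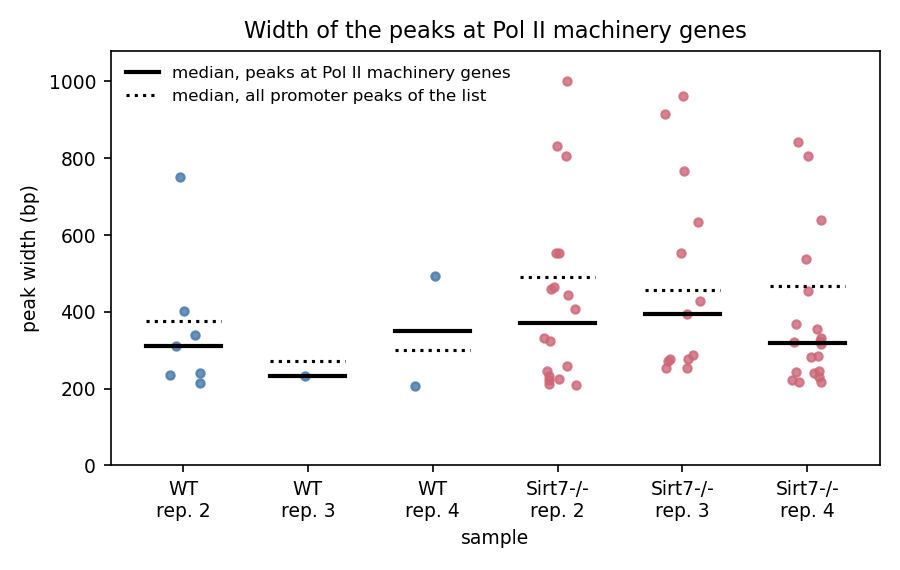
Widths in bp of the promoter peaks at the Pol II machinery genes, 1 point per peak, in each of the 6 samples, beside the median width of all promoter peaks of that list. In the 3 Sirt7-/- samples the median of the machinery genes (369.5, 395 and 319 bp) is below that of the whole list (491, 456 and 468 bp).

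A further 38 genes act with this machinery but fall outside the choice by symbol and autosome. Of these, 18 (47.4%, against 19.3% of all starts) were called in at least 1 Sirt7-/- sample and 4 (10.5%, against 5.12%) in at least 1 WT sample. In all 3 Sirt7-/- samples, 4 of the 38 were called, against 5.09% of all starts. They were Tbpl1, a TBP-like factor used in spermatogenesis, Cdk19, a Mediator kinase, and Cdc73, of the PAF1 elongation complex. The other was Aff4, the scaffold of the super elongation complex, which was also called in WT replicate 2. By group, 13 of 24 pausing and elongation genes were called in at least 1 Sirt7-/- sample, 2 of 5 TFIIH helicase and kinase genes, 2 of 6 TFIID genes and their germ-line counterparts (Tbp and Tbpl1) and 1 of 3 Mediator kinase genes. The subunits of FACT, a histone chaperone that travels with Pol II, were called in WT replicate 2, with Supt16 also in 2 Sirt7-/- samples and Ssrp1 in none. Ccnt2, a cyclin of the pause-release kinase, was called in WT replicate 2 and in 2 Sirt7-/- samples, while its partner Cdk9 was called in 1 Sirt7-/- sample. Nelfb, of the pausing factor NELF, and Ell2, an elongation factor, were called in 2 Sirt7-/- samples and no WT sample.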

How the data were processed

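The data were broad peak lists of H3K36ac ChIP-seq, 1 for each of 3 WT and 3 Sirt7-/- samples, grouped by the sample labels. Per the submitters' processing notes, the tools included MACS2 2.2.5 as peak caller, Bowtie2 2.4.4.1 as aligner, SAMtools 1.19.2, bedtools 2.27.1 and, for trimming, Trim Galore 0.6.6. Reads were aligned to mm10, those under a mapping quality of 30 were removed, and MACS2 called broad peaks (broad cutoff 0.1) in each sample against its own input, without pooling replicates. For each peak the deposited lists hold a score, a fold over input (a ratio) and the -log10 of a p-value and a q-value, all computed by the authors. The deposited score was not used. The fold was not compared between lists, and -log10 p and q served to rank or filter peaks within lists. A call depends on the depth of the library and its input. The study lists clean reads per library, but the reads left after filtering are not given in the sources used here, so the precision of a single call is unknown.

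Genes and starts were those of RefSeq on GRCm38.p6. Strand came from the RefSeq promoter table for 17492 starts and from GENCODE vM39, by symbol or synonym and chromosome, for 3976, and both sources gave the same strand for 99.4% of 22231 genes with both. The start is the outer end of the gene. The table holds no exons, so peaks inside genes were not assigned to exons or introns. Promoter windows were matched by gene for 63 of the 74 genes. The rank of a peak is by -log10 q within its list.

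Starts were compared with Fisher's exact test and Benjamini-Hochberg adjustment, and the share of all starts with an exact permutation test over all 20 assignments of 6 samples. Counts of machinery genes were set beside the same counts over all starts, with no test. All genes with a call and all without were named, with width and rank in each sample for those called in WT or in all 3 Sirt7-/- samples. Further ranks and widths were picked after the values were seen. The genes and lists were chosen with earlier results of these data known. Only 1 peak had the same coordinates in any pair of lists. The assignment of peaks to starts was tested on simulated data. Alternatives were stricter thresholds, equal list lengths, other promoter definitions and other backgrounds, a replicate block, and each sample left out. Tests ran in SciPy 1.17.1 with NumPy 2.4.6 and pandas 2.3.3, under Python 3.11.15, and figures were drawn with matplotlib 3.10.9.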

Additional observations from a re-analysis of the deposited data

How the results depend on the processing

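Of 100 recalculated counts and rates, 76 stayed close to the reported value, 23 moved and 1 reversed. The 3 genes with a call in every Sirt7-/- list and none in WT, and the 33 called in at least 1 Sirt7-/- sample, became 1 and 20 at a -log10 q of at least 2, 0 and 10 for peaks at least 500 bp wide, 0 and 1 with the best 64 peaks of every list, 0 and 12 with the Sirt7-/- lists reduced to 906 peaks, and 1 and 10 for peaks covering the start. The 8 genes called in WT became 1 by width, 3 with 64 peaks and 2 for peaks covering the start. The rate over all starts became 1.17 in Sirt7-/- and 0.302 in WT by width, and 1.42 and 5.49 with 64 peaks, where the difference over all starts, near 0 by construction, was -0.0233 percentage points. There the differences in called samples of Polr2m and Gtf2e1 were -2 and -1. Gtf2e1 was also at -1 with reduced lists. In alternatives chosen after seeing the data, a common minimum -log10 p of 5.99 gave 0 and 14 genes, a rate of 1.39 in Sirt7-/- and -1 for Gtf2e1, and CpG-rich promoters alone gave 1.14 in Sirt7-/-. Leaving out each sample gave 3 to 7, 22 to 33 and 3 to 8 genes for these counts, rates of 1.72 to 2.05 in Sirt7-/- and 2.08 to 3.21 in WT, and differences of 8.69 to 10.7 points over all starts.

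With the replicate number as a block, the difference of 9.54 points had an exact permutation p of 0.25, the smallest that 3 pairs allow. Same-numbered samples deviated together with correlations of 0.03, 0.02 and 0.01 across starts, and differently numbered ones with -0.03 to 0.01. Calls as sparse as these cannot decide whether the numbers pair the samples. Read depth after filtering, and with it the smallest detectable peak, is not known here.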

Other observations

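The genes of the same machinery on the X chromosome, which the choice of autosomal genes leaves out, had no promoter peak in any sample. These are Med12 and Med14 of Mediator, Taf9b, and the germ-cell gene Taf7l, to which Taf1, the largest subunit of TFIID, can be added from the genes that act with the machinery. Few starts on that chromosome were called: 27 of 955 protein-coding starts on X (2.83%) had a promoter peak in at least 1 Sirt7-/- sample, against 4109 of 20260 on the autosomes (20.3%), and 0 of 955 in WT, against 5.42%.

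The pseudogenes with these names had no peak. The long noncoding RNA Med9os was called in WT replicate 2 and Sirt7-/- replicate 4, by the peaks given for Med9.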
